A study of Mus musculus with 6 samples.

Results

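Micromass cultures of Ezh2-deficient mouse chondrocytes were set against wildtype cultures at day 3, the earliest of the 3 times sampled, over all genes of the deposited table. Each genotype gave 1 library on that day, so 2 of the 6 libraries carry the comparison, and the pairs from day 7 and day 14 show which of its differences were still there later. The Ezh2-deficient cells carried a conditional knockout (titled Ezh2_cKO). The Cre line that drove it and the deleted part of the gene are not given in the sources used here. In both genotypes the cells were immature chondrocytes from the cartilage of the femoral head, the femoral condyles and the tibial plateau, taken at post-natal day 5 from mice whose strain is labelled "C57BL/6 - mix". They were kept in DMEM with 2% FBS and then cultured as micromasses, which are small dense drops of cells, with insulin, transferrin and selenium, 0.05 mg/mL ascorbic acid and 10 mM β-glycerol phosphate. How many mice or micromasses went into a library is not stated. With 1 library a side there is no spread between replicates at day 3, so sizes are given with counting intervals and the day 3 pair has no test.

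Ezh2 is the main catalytic subunit of Polycomb repressive complex 2, which methylates lysine 27 of histone H3 and keeps genes of other lineages and of later stages silent. Young chondrocytes in a micromass first multiply and lay down a matrix of type II collagen and aggrecan. Some then enlarge (hypertrophy), and bone-like mineral follows when a phosphate source is present. The same mesenchymal progenitors can also form fat, bone, fibrous tissue or contractile cells, and cultures of primary cartilage may hold a few cells of these kinds.

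Levels are in CPM, counts per 1000000 counts of the library after TMM scaling (trimmed mean of M values). They compare one gene between libraries, not different genes with each other. The day 3 libraries held 79323302 counts (Ezh2-deficient) and 70489216 counts (wildtype), with counts for 18134 and 17648 genes, and the 6 libraries ran from 51985214 to 79323302 counts. Every count was even, so a fragment is taken as 2 counts. A gene at 0 could lie at up to 3 fragments, which is 0.0809 CPM in the Ezh2-deficient and 0.0907 CPM in the wildtype library. The ribosomal RNA precursor Rn45s took 2.98% of counts in Ezh2-deficient and 1.82% in wildtype at day 3. Transcripts of the Y chromosome summed to 123 CPM in Ezh2-deficient and 90.5 CPM in wildtype at day 3. Xist, which is made in female cells, had 844 CPM in Ezh2-deficient and 1061 CPM in wildtype, so both libraries held RNA of both sexes. The gap was wider later. At day 7 the Y-linked sum was 132 CPM in Ezh2-deficient and 62.6 CPM in wildtype, and Xist had 678 and 1133 CPM. At day 14 the Y-linked sum was 171 CPM in Ezh2-deficient and 60.6 CPM in wildtype, and Xist had 512 and 1221 CPM. The part of this gap in the comparison of day 3 with later days was not tested. Cartilage markers were high in both day 3 libraries, as the labels say: Col2a1 (type II collagen) had 78231 CPM in Ezh2-deficient and 78869 CPM in wildtype.

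Ezh2 (chromosome 6, 47530274 to 47595030 in mm10, the build of all gene coordinates here) had 14.7 CPM in Ezh2-deficient and 24.6 CPM in wildtype cultures at day 3. The ratio was 0.598, with a 95% counting interval of 0.536 to 0.668. On the log2 scale the day 3 ratio was -0.74, beside -0.80 at day 7 and -0.67 at day 14, so the targeted gene was about as far apart on the first day sampled as later, and transcripts were still present on each. Reads from outside the deleted part cannot show what share of cells lost the gene. Ezh1, the other methyltransferase of the complex, had a day 3 log2 ratio of -0.24, and the core subunits Eed and Suz12 had -0.08 and 0.12.

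At day 3 more genes were higher than lower in the Ezh2-deficient library. A size rule was used: 1 CPM or more in the higher library, a ratio of 2-fold or more after 2 fragments were added to each side, and a 95% counting interval that leaves out 1. Of 13128 genes expressed (1 CPM or more in either day 3 library), 234 were higher (1.78%) and 66 were lower (0.503%), so 78% of those past the rule were higher. At day 7 the rule gave 334 higher (2.48%) and 218 lower (1.62%) of 13473 genes, with 60.5% higher. At day 14 it gave 340 higher (2.52%) and 440 lower (3.26%) of 13477, with 43.6% higher. The day 3 pair was also the closest of the 3 over all genes: the log2 ratios had an SD across genes of 0.37 at day 3, 0.44 at day 7 and 0.49 at day 14. Most genes past the rule at day 3 were of low level. The median in the higher library was 2.93 CPM for the 234 higher genes and 3.54 CPM for the 66 lower genes, against 24.9 CPM for all expressed genes, and 149 and 40 of them were under 5 CPM. Many lay near the threshold, with 72 of the higher and 20 of the lower genes between 2-fold and 2.2-fold, and a further 116 and 59 genes between 1.8-fold and 2-fold.

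**Figure D1:**
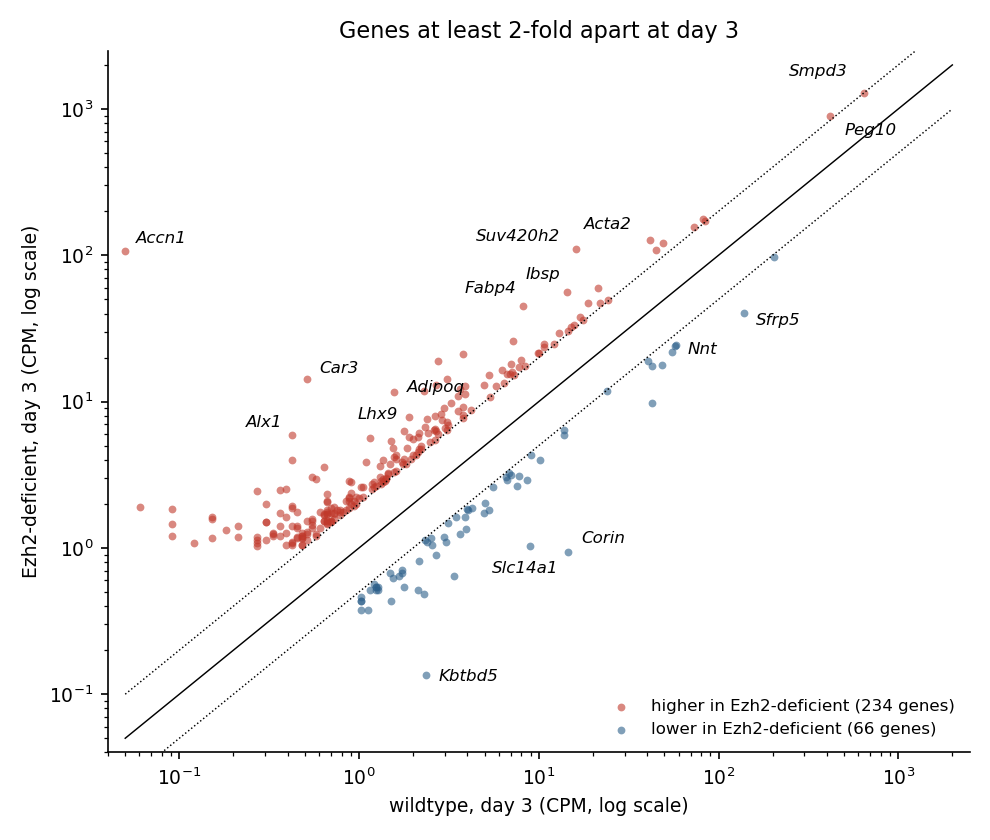
Level of each of the 300 genes past the size rule at day 3, in the Ezh2-deficient library (vertical axis, CPM, log scale) against the wildtype library (horizontal axis, CPM, log scale). Red points are the 234 higher and blue points the 66 lower genes in Ezh2-deficient, the solid line marks equal levels, the dotted lines 2-fold, and values under 0.05 CPM are drawn at 0.05 (Accn1 in wildtype had 0). Most points lie close to the dotted lines and under 5 CPM, with Accn1, Car3, Suv420h2 and Corin far from them.

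Most of what differed at day 3 was smaller or gone later. The genes were chosen for large day 3 ratios from 1 library a side, so some shrinkage in any other pair follows from the choice alone. Of the 234 higher genes, 67 also passed upward at day 7 (28.6% of the day 3 genes, 20.1% of the 334 at day 7) and 39 at day 14 (16.7%, and 11.5% of the 340). The median log2 ratio of the 234 was 1.27 at day 3, which the rule fixes, 0.61 at day 7 and 0.26 at day 14. Of the 66 lower genes, 21 passed downward at day 7 (31.8%, and 9.63% of the 218) and 16 at day 14 (24.2%, and 3.64% of the 440), with medians of -1.23, -0.65 and -0.44. In all, 83 of the 234 and 27 of the 66 passed in the same direction on at least 1 later day, and 23 and 10 on all 3 days. A gene was called different at day 3 alone when it passed at day 3 and on both later days was under 1.5-fold in that direction. The rule does not bar a later difference in the other direction. Of the 234 higher genes, 2 passed downward at day 7 and 10 at day 14. Of the 66 lower genes, 1 passed upward at day 7 and 1 at day 14. There were 92 such genes higher (0.701% of those expressed) and 25 lower (0.19%). The same rule applied to a later day gave 69 higher (0.512%) and 48 lower (0.356%) at day 7 alone, and 101 (0.749%) and 141 (1.05%) at day 14 alone.

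Set against the Ezh2-deficient day 3 level, which the choice of genes makes high, the 92 higher genes were of 2 kinds in about equal number. For 47 of them the wildtype library at day 7 was at or above the Ezh2-deficient library at day 3. In 44, both day 7 libraries were above the Ezh2-deficient day 3 level, and in 42 both were below it. Set against the wildtype day 3 level, 71 of the 92 had both day 7 libraries above and 14 had both below. Of the 25 lower genes, 4 had both day 7 libraries below the Ezh2-deficient day 3 level, and 16 had both above it. Against the wildtype day 3 level, the higher of the pair for these genes, 17 of the 25 had both day 7 libraries below and 5 had both above.

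**Figure D2:**
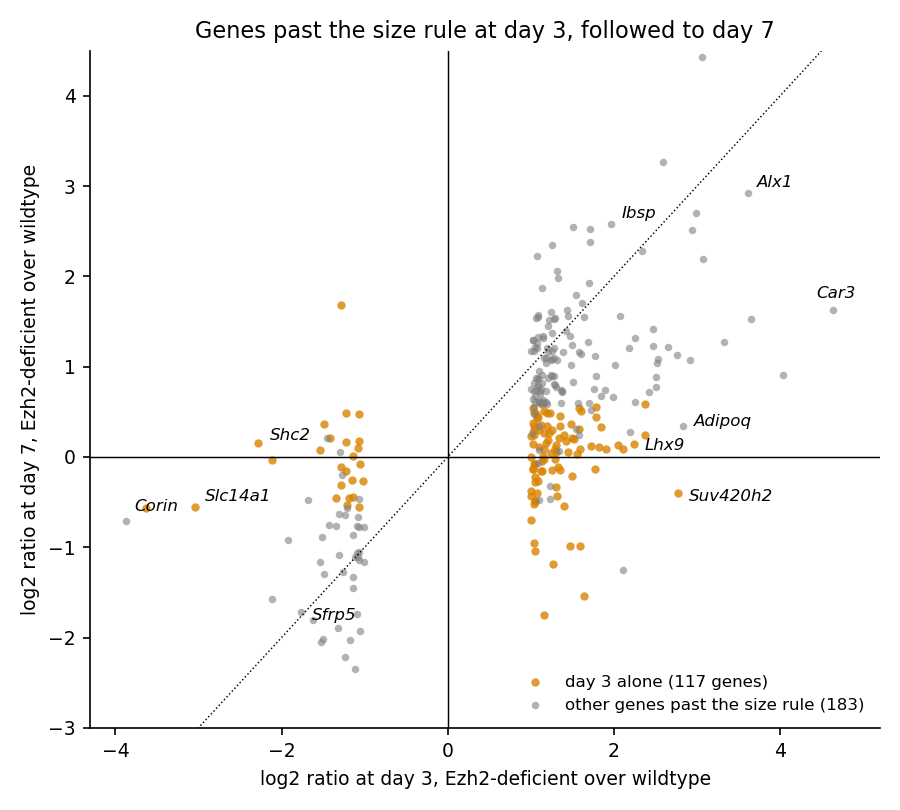
Log2 ratio of Ezh2-deficient over wildtype at day 7 (vertical axis) against the same ratio at day 3 (horizontal axis), for the genes past the size rule at day 3. Orange points are the 117 genes different at day 3 alone and grey points the other 183, the dotted line marks equal ratios, and Accn1 (10.79 at day 3) lies outside the axis. The median of the 234 higher genes is 1.27 at day 3 and 0.61 at day 7, while Ibsp and Sfrp5 are past 2-fold on both days.

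Accn1 and Suv420h2 set the Ezh2-deficient day 3 library apart from all 5 others. Accn1 (the current name is Asic2, chromosome 11, 80880165 to 81968396) codes for an acid-sensing ion channel subunit best known from neurons. It had 107 CPM in the Ezh2-deficient library, from 3974 fragments, and 0 CPM in wildtype, which is at least 1182-fold higher against the limit of 3 fragments in the wildtype library (the lower end of its counting interval is 960.5-fold). The other libraries had 0.0254 CPM in Ezh2-deficient and 0 CPM in wildtype at day 7, and 0.0364 CPM in Ezh2-deficient and 0.114 CPM in wildtype at day 14. The gene spans 1088232 bases and 6 other annotated genes overlap it, among them 1 protein-coding gene on the opposite strand, and the strand of the reads is not given. Among 10556 genes with 5 CPM or more in that library, Accn1 was the only one more than 10-fold above every other library. Suv420h2 (the current name is Kmt5c, chromosome 7, 4740127 to 4747514) codes for a methyltransferase of histone H4 lysine 20. Its level was 109.9 CPM in Ezh2-deficient against 16.02 CPM in wildtype at day 3, a ratio of 6.86 (interval 6.27 to 7.53). At day 7 it had 15.7 CPM in Ezh2-deficient and 20.7 CPM in wildtype, and at day 14 20.3 CPM in both, so 1 library lay above 5 that were alike. Corin (chromosome 5, 72300025 to 72504540), a membrane protease that activates natriuretic peptides in the heart, was far higher in the wildtype day 3 library than in the other 5. It had 0.944 CPM in Ezh2-deficient and 14.6 CPM in wildtype at day 3, 15.5-fold lower (interval 10.99 to 22.5), 0.687 CPM in Ezh2-deficient and 1.17 CPM in wildtype at day 7, and 0.437 CPM in Ezh2-deficient and 1.33 CPM in wildtype at day 14, when it also passed the rule downward.

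Genes of fat cells formed the group with the highest median at day 3. Of 32 listed adipocyte genes, 25 were expressed, 15 passed the rule upward and 0 downward, and 23 of 25 were higher in Ezh2-deficient, with a median log2 ratio of 1.28 beside 0.00 over all expressed genes. At 5 CPM or more, 9 passed upward. Among the genes of secreted products, all 3 expressed members passed. Adipoq (adiponectin, chromosome 16, 23146536 to 23157968) had 11.6 CPM in Ezh2-deficient and 1.57 CPM in wildtype, a ratio of 7.38 (interval 5.52 to 10.0). Adipsin (Cfd) had 1.91 CPM in Ezh2-deficient and 0.0605 CPM in wildtype, from 2 fragments in wildtype, so the ratio of 31.7 has a counting interval of 8.45 to 267. Resistin (Retn) had 1.46 CPM in Ezh2-deficient and 0.0907 CPM in wildtype. Leptin (Lep) was near the counting limit in both day 3 libraries, at 0.0809 CPM in Ezh2-deficient and 0 in wildtype. The transcription factors that direct fat cell formation, Pparg and Cebpa, had 11.2 and 21.6 CPM in Ezh2-deficient against 3.90 and 10.1 CPM in wildtype.

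Of 14 expressed genes for lipid uptake, storage and breakdown, 7 passed the rule and 13 were higher. The fatty acid carrier Fabp4 (chromosome 3, 10204343 to 10208576) had 45.3 CPM in Ezh2-deficient and 8.13 CPM in wildtype (5.57-fold, interval 4.90 to 6.36). The lipid droplet proteins Plin1 and Cidec had 13.1 and 1.16 CPM in Ezh2-deficient against 2.69 and 0.151 CPM in wildtype. Gpd1, which makes the glycerol backbone of triglycerides, had 21.3 CPM in Ezh2-deficient and 3.78 CPM in wildtype. Members that chondrocytes and other cells also use were closer. The lipases Lpl and Pnpla2 had 149.8 and 20.1 CPM in Ezh2-deficient against 90.0 and 10.6 CPM in wildtype, and the desaturase Scd1 had 1612 CPM in Ezh2-deficient and 1198 CPM in wildtype. Carbonic anhydrase 3 (Car3, chromosome 3, 14863538 to 14872373), which is abundant in fat and in slow muscle, had the largest log2 ratio of the list after the prior of 2 fragments (4.63, beside 4.03 for Cfd), with 14.2 CPM in Ezh2-deficient and 0.514 CPM in wildtype (27.6-fold, interval 17.1 to 47.7). In bulk RNA, more cells of a type and more RNA per cell cannot be told apart, here or in the groups that follow.

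The gap in fat cell genes was smaller later. In 19 of the 25 members both libraries were higher at day 7 than either was at day 3. Over the same 25 members the median log2 ratio was 0.81 at day 7 and 0.65 at day 14, with 9 and 5 members past the rule. For 13 of the 15 members past the rule at day 3, the wildtype library at day 7 was above the Ezh2-deficient library at day 3. Adipoq had 41.3 CPM in Ezh2-deficient and 32.4 CPM in wildtype at day 7, and 8.34 CPM in Ezh2-deficient and 4.78 CPM in wildtype at day 14. Car3 had 35.3 CPM in Ezh2-deficient and 11.4 CPM in wildtype at day 7, and 26.8 CPM in Ezh2-deficient and 15.9 CPM in wildtype at day 14. Fabp4 and Gpd1 kept more of the gap, with log2 ratios at day 7 of 1.23 and 1.42.

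**Figure D3:**
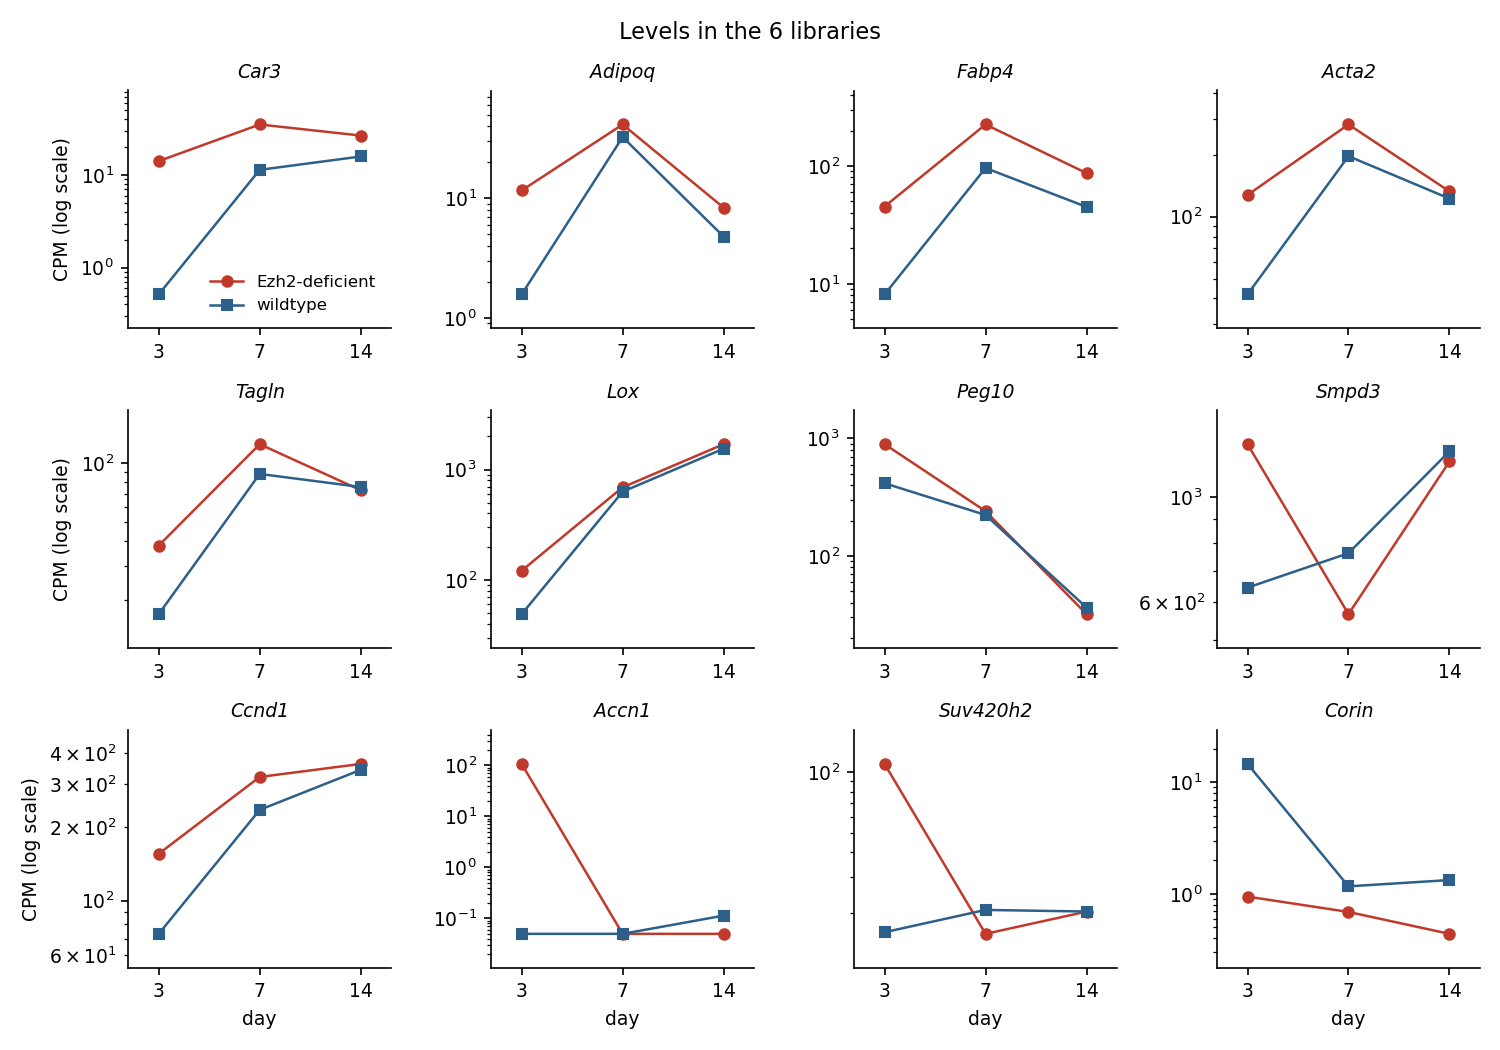
Levels of 12 genes (CPM, log scale, vertical axes that differ by panel) on days 3, 7 and 14, with Ezh2-deficient as red circles and wildtype as blue squares, 1 library per point, and values under 0.05 CPM drawn at 0.05. Car3, Adipoq, Fabp4, Acta2, Tagln, Lox and Ccnd1 start lower in wildtype and come closer by day 7, Peg10 is lower on each later day in both genotypes, Accn1 and Suv420h2 are high in 1 library, and Corin is high in wildtype at day 3.

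Contractile genes of smooth muscle and of activated fibroblasts were higher at day 3, while pericyte genes were not. All 9 expressed contractile members were higher, 5 passed the rule (3 at 5 CPM or more), and their median log2 ratio was 1.16. Smooth muscle actin (Acta2, chromosome 19, 34241091 to 34255336) had 128 CPM in Ezh2-deficient and 41.8 CPM in wildtype (3.05-fold, interval 2.87 to 3.24). Transgelin (Tagln), an actin-bundling protein, had 38.0 CPM in Ezh2-deficient and 17.0 CPM in wildtype. Calponin (Cnn1), which binds actin in the contractile apparatus, had 2.97 CPM in Ezh2-deficient and 0.574 CPM in wildtype, and the enteric actin Actg2 had 6.69 CPM in Ezh2-deficient and 2.33 CPM in wildtype. Desmin (Des), the muscle intermediate filament, had 1.27 CPM in Ezh2-deficient and 0.484 CPM in wildtype. Vinculin (Vcl), which anchors actin at cell contacts and was chosen after its values were seen, had 171 CPM in Ezh2-deficient and 84.3 CPM in wildtype. All 4 expressed pericyte members were lower, but only 2 had counting intervals below 1 and 1 passed the rule downward. Among them, Rgs5 had 0.431 CPM in Ezh2-deficient and 1.51 CPM in wildtype. Cspg4 had 904 CPM in Ezh2-deficient and 1375 CPM in wildtype. It made up most of the pericyte sum of 927 CPM in Ezh2-deficient and 1401 CPM in wildtype. Smooth muscle myosin (Myh11) had 0.566 CPM in Ezh2-deficient and 0.333 CPM in wildtype, under the level taken as expressed.

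Acta2, Tagln and Vcl were among the genes different at day 3 alone. At day 7 Acta2 had 281 CPM in Ezh2-deficient and 197 CPM in wildtype, and at day 14 133 CPM in Ezh2-deficient and 122 CPM in wildtype. Cnn1 passed on all 3 days. Over the same 9 contractile members the median log2 ratio was 0.78 at day 7 and 0.57 at day 14. Lox, the enzyme that cross-links collagen and elastin, also lost its gap, while its level went on rising with time in both genotypes. It had 121 CPM in Ezh2-deficient and 49.0 CPM in wildtype at day 3, with log2 ratios of 1.31, 0.13 and 0.14 on the 3 days. Of 28 expressed fibroblast genes, Lox and Dpp4 passed upward and 0 downward, with a median of 0.09. In skeletal muscle 4 of 12 expressed members passed upward, which were Myl1, Acta1, Neb and Des, all under 5 CPM. Their list summed to 46.7 CPM in Ezh2-deficient and 37.2 CPM in wildtype.

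Several developmental transcription factors were higher at low levels. Of 37 expressed members of a list of patterning and lineage regulators, 6 passed upward and 1 downward, 27 were higher, and the median log2 ratio was 0.47, beside 1.78% upward and 0.503% downward over all genes. With a prior of 10 fragments, or at 5 CPM or more, 2 passed upward. Alx1, a homeobox factor of craniofacial and limb mesenchyme, had 5.88 CPM in Ezh2-deficient and 0.423 CPM in wildtype (13.9-fold, interval 8.10 to 25.8). It went down with time in both genotypes and stayed apart, with log2 ratios of 2.92 at day 7 and 2.83 at day 14. By day 14 it had 0.9105 CPM in Ezh2-deficient and 0.0759 CPM in wildtype, under 1 CPM in both, so it did not pass the rule then. Its relative Alx4 had 1.29 CPM in Ezh2-deficient and 0.514 CPM in wildtype and passed on all 3 days. Lhx9, a LIM homeobox factor of limb and gonad, had 5.66 CPM in Ezh2-deficient and 1.15 CPM in wildtype at day 3, 6.77 CPM in Ezh2-deficient and 6.12 CPM in wildtype at day 7, and 2.40 CPM in Ezh2-deficient and 4.78 CPM in wildtype at day 14, so it belonged to day 3 alone. Isl1 and Tbx2, which pattern the limb and heart, had 3.75 and 2.53 CPM in Ezh2-deficient against 1.75 and 1.18 CPM in wildtype. Goosecoid (Gsc) went the other way, with 1.89 CPM in Ezh2-deficient and 4.23 CPM in wildtype at day 3, and was higher at day 14, with 3.75 CPM in Ezh2-deficient and 1.37 CPM in wildtype. Of the Hox genes, which set position along the limb and body, 22 were expressed, 0 passed in either direction and the median was 0.10.

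Lists of secreted signals and their partners leaned upward at day 3, with few members past the rule. The FGF and IGF list had 21 of 26 expressed members higher (median log2 ratio 0.42), with 18 counting intervals above 1 and 4 below. The Wnt list had 18 of 22 higher (median 0.27) and the BMP and TGF-beta list 25 of 34 (median 0.24). Counting intervals are narrow at this depth and leave out 1 in lists near even too, here and below. Of 31 expressed unfolded protein and Atf4 genes (median 0.05), 18 had intervals above 1 and 4 below. The share over all expressed genes was not counted. The epithelial growth factors Fgf7 and Fgf10 had 17.6 and 2.99 CPM in Ezh2-deficient against 8.34 and 1.42 CPM in wildtype, the only 2 of 26 expressed FGF and IGF members past the rule. Of 22 expressed Wnt members, the R-spondin Rspo2 and the Wnt antagonist Sfrp2 passed upward, and Sfrp5, another antagonist, passed downward. Sfrp2 had 12.7 CPM in Ezh2-deficient and 5.77 CPM in wildtype. The antagonist Frzb lay just under the rule, with 466 CPM in Ezh2-deficient and 244 CPM in wildtype at day 3 and a log2 ratio of -0.13 at day 7. Sfrp5 had 40.6 CPM in Ezh2-deficient and 138 CPM in wildtype at day 3 (3.40-fold lower, interval 3.20 to 3.60) and stayed apart, with log2 ratios of -1.71 and -1.94 later. Bdnf, the brain-derived neurotrophic factor, had 3.56 CPM in Ezh2-deficient and 0.635 CPM in wildtype at day 3, then 6.51 CPM in Ezh2-deficient and 5.49 CPM in wildtype at day 7. Of the other lists, BMP and TGF-beta had 2 of 34 past the rule upward (Bmp4, Bmp8a) and Hedgehog and Notch 1 of 17 (Lfng). Inflammatory genes had 1 of 20 (Cxcl12), matrix proteases 1 of 20 (Adamts5) and immediate early genes 2 of 23 (Egr3, Nr4a1). None passed downward in these 5 lists. Over all expressed genes 1.78% passed upward and 0.503% downward. With a prior of 10 fragments, 0 Hedgehog and Notch and 0 immediate early genes passed upward. At 5 CPM or more, 0 BMP and TGF-beta genes did.

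Bone genes were shifted upward at day 3, and cartilage genes leaned slightly downward. Of 32 expressed osteoblast and mineralisation genes, 28 were higher, 6 passed upward and 0 downward, and the median log2 ratio was 0.41. Bone sialoprotein (Ibsp) had 56.2 CPM in Ezh2-deficient and 14.4 CPM in wildtype (3.92-fold, interval 3.54 to 4.33). Osteocalcin (Bglap), which shares sequence with its neighbours so that reads may be split, had 13.3 CPM in Ezh2-deficient and 6.41 CPM in wildtype. Tmem119, a membrane protein of osteoblasts, had 29.4 CPM in Ezh2-deficient and 12.9 CPM in wildtype. These genes kept their gap, with log2 ratios for Ibsp of 2.58 at day 7 and 1.86 at day 14. Smpd3, a sphingomyelinase needed for bone and cartilage mineral, differed at day 3 alone. It had 1294 CPM in Ezh2-deficient and 645 CPM in wildtype at day 3, 567 CPM in Ezh2-deficient and 762 CPM in wildtype at day 7, and 1190.3 CPM in Ezh2-deficient and 1251 CPM in wildtype at day 14. With a ratio of 2.01 it lay at the threshold, and it was below it when libraries were scaled by total counts only. Type I collagen (Col1a1) was 1.62-fold higher, with 1136 CPM in Ezh2-deficient and 701 CPM in wildtype.

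In the cartilage list 0 of 31 expressed members passed in either direction and the median log2 ratio was -0.10. Of these members 22 were lower, 21 had counting intervals below 1 and 9 had intervals above 1. Acan (aggrecan) had 12072 CPM in Ezh2-deficient and 14421 CPM in wildtype, and Sox9, the master regulator of cartilage, had 320.3 CPM in Ezh2-deficient and 334 CPM in wildtype. The lower end held Cilp (-0.97, at 1.51 CPM in Ezh2-deficient and 3.02 CPM in wildtype), Ucma (-0.78) and Clec3a (-0.71), all secreted proteins of cartilage. The list moved apart later, with medians of -0.49 at day 7 and -0.67 at day 14, and 3 and 8 members past the rule downward. Of 17 expressed hypertrophy genes, a list that shares members with the bone list, 14 were higher at day 3 and 2 passed upward, with a median of 0.40. The hypertrophy marker Col10a1 had 441 CPM in Ezh2-deficient and 366 CPM in wildtype at day 3, against 211 CPM in Ezh2-deficient and 463 CPM in wildtype at day 7.

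Cell division genes were slightly higher at day 3 and lower on both later days. Of 48 expressed cell cycle genes, 46 were higher in Ezh2-deficient at day 3, with a median log2 ratio of 0.29, while only Ccnd1 passed the size rule. Over the same genes the median was -0.60 at day 7 and -1.17 at day 14, with 2 and 30 members past the rule downward. All 24 mitosis genes were higher at day 3 and lower at day 7 and day 14. Their day 3 log2 ratios lay between 0.02 and 0.56, and 22 of 24 had counting intervals above 1. The mitosis genes summed to 723 CPM in Ezh2-deficient and 574 CPM in wildtype at day 3, 1474 CPM in Ezh2-deficient and 2456 CPM in wildtype at day 7, and 627 CPM in Ezh2-deficient and 1653 CPM in wildtype at day 14. Cdk1, the kinase that drives entry into mitosis, had 30.7 CPM in Ezh2-deficient and 22.8 CPM in wildtype at day 3, 53.4 CPM in Ezh2-deficient and 92.0 CPM in wildtype at day 7, and 28.2 CPM in Ezh2-deficient and 58.6 CPM in wildtype at day 14. Top2a, which untangles chromosomes, and Ccnb2, a mitotic cyclin, had 116 and 15.1 CPM in Ezh2-deficient against 96.0 and 12.4 CPM in wildtype at day 3. Of 16 replication genes, 15 were higher at day 3 (median 0.21) and 0 at day 7 or day 14. Cyclin D1 (Ccnd1), which acts in G1 and answers growth signals, had 155 CPM in Ezh2-deficient and 73.2 CPM in wildtype at day 3 and differed at day 3 alone, with log2 ratios of 0.45 and 0.08 later.

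The promoters of 3 mitosis genes that moved together are shown because they share short motifs known from genes of this phase. They are RefSeq sequences of the 250 bases before the RefSeq start (build GRCm38.p6), each on the minus strand, for Cdk1 (chr10:69352913-69353162), Top2a (chr11:99024190-99024439) and Ccnb2 (chr9:70421555-70421804). Capitals mark CCAAT and TTTGAA on either strand, the reverse strand being read as ATTGG and TTCAAA, and no matches overlap.
Cdk1: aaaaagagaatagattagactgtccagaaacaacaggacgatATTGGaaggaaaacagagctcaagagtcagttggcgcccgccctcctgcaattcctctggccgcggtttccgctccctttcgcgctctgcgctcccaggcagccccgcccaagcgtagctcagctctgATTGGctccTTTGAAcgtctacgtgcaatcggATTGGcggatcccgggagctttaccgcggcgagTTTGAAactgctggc
Top2a: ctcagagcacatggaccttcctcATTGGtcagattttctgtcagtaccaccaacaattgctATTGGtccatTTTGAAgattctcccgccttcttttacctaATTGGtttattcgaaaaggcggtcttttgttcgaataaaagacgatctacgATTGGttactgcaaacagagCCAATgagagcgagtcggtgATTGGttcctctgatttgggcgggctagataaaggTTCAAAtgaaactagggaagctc
Ccnb2: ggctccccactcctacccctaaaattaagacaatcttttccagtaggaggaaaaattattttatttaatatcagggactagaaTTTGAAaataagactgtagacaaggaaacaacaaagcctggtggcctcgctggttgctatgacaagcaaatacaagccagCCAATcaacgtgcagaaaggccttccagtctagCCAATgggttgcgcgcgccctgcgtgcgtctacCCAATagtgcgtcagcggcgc
RefSeq promoters were matched for 19 of the 24 mitosis genes and 37 of the 48 cell cycle genes. Motifs were searched in the 250 bases before the start. CCAAT was present there in 17 of the 19 mitosis genes, against 37.5% of 27025 genes with a promoter. It was about as common in replication genes (11 of 13) and was present in 30 of the 37 cell cycle genes. TTTGAA was present in 7 of 19 mitosis genes and 2 of 13 replication genes, against 18.3%. A gene with several promoters counted if any of them held the motif. These are matches of letters, not measured binding.

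**Figure D4:**
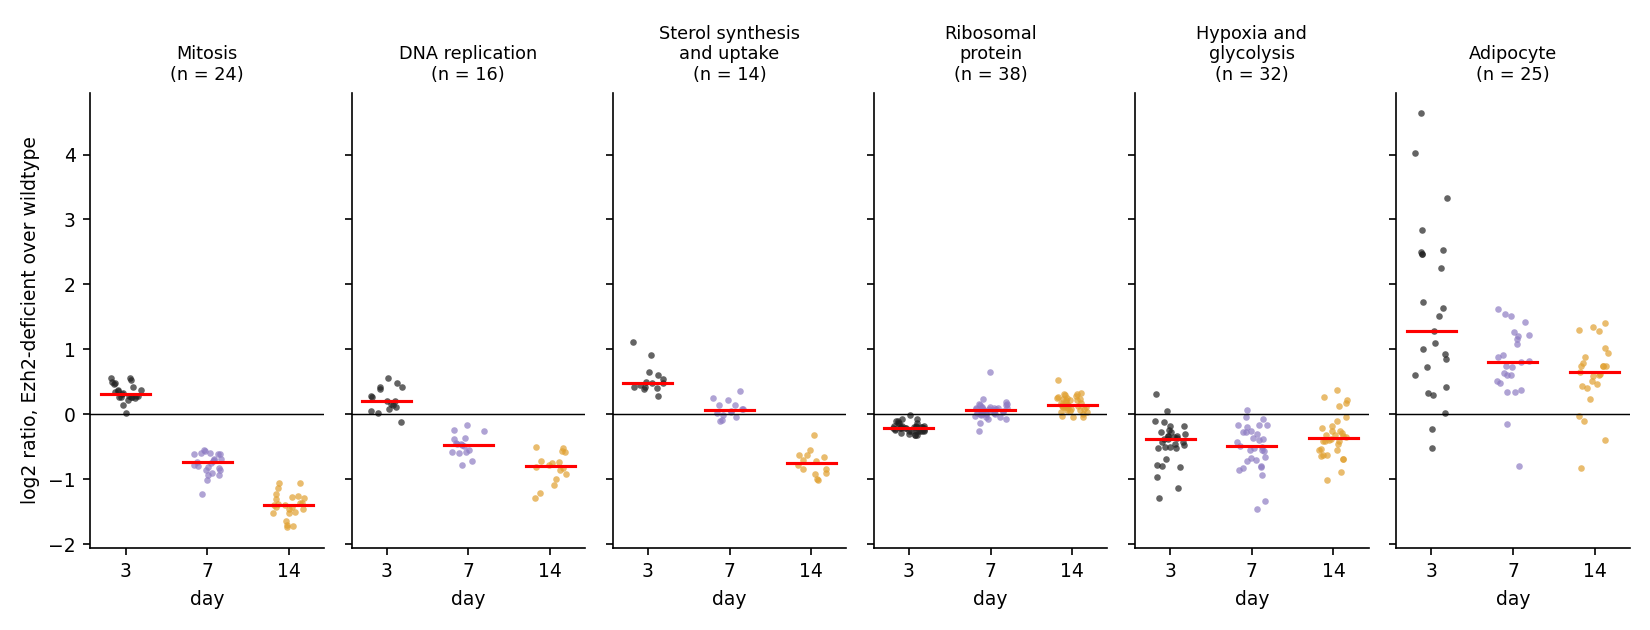
Log2 ratio of Ezh2-deficient over wildtype (vertical axis) on days 3, 7 and 14 for each member of 6 gene groups, with 1 dot per gene, spread sideways for legibility, and the same members (1 CPM or more at day 3) on each day. Red lines are medians. Mitosis genes lie above 0 at day 3 and below 0 later, sterol genes go from above 0 to below 0 by day 14, ribosomal protein genes lie just below 0 at day 3 and mostly above it later, and hypoxia genes lie below 0 on all 3 days.

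Genes of cholesterol synthesis were higher together at day 3, even at day 7 and lower at day 14. All 14 sterol genes were higher at day 3, each with a counting interval above 1, and the median log2 ratio was 0.48. They summed to 3449 CPM in Ezh2-deficient and 2408 CPM in wildtype at day 3, 1604 CPM in Ezh2-deficient and 1553 CPM in wildtype at day 7, and 1286 CPM in Ezh2-deficient and 2215 CPM in wildtype at day 14. At day 14 all 14 were lower, with a median of -0.74. Nsdhl, an enzyme of late sterol synthesis, was the only one past the size rule, with 47.5 CPM in Ezh2-deficient and 21.8 CPM in wildtype at day 3, 44.9 CPM in Ezh2-deficient and 35.0 CPM in wildtype at day 7, and 28.1 CPM in Ezh2-deficient and 45.5 CPM in wildtype at day 14. Insig1, which holds the sterol sensor in the endoplasmic reticulum, had 446 CPM in Ezh2-deficient and 237 CPM in wildtype at day 3 and 139 CPM in Ezh2-deficient and 147 CPM in wildtype at day 7. Hmgcs1, an early enzyme of the pathway, had 520.3 CPM in Ezh2-deficient and 381 CPM in wildtype at day 3. Fatty acid synthesis took another course: its 11 expressed genes had medians of 0.17 at day 3, 0.79 at day 7 and 0.11 at day 14. Thrsp and Mlxipl, which drive lipid synthesis in fat and liver, passed the rule among them at day 3.

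The promoters of an early and a late enzyme of the pathway are shown as the sterol counterpart of those above. They are the RefSeq sequences of the 250 bases before the RefSeq start of Hmgcs1 (chr13:119690101-119690350) and Nsdhl (chrX:72918271-72918520), both on the plus strand of GRCm38.p6. The bases checked just after that start were found in 0 GENCODE transcripts of either gene. Capitals mark CCAAT on either strand and TCACNCCAC, a form of the sterol response element, which was searched on both strands. No matches overlap.
Hmgcs1: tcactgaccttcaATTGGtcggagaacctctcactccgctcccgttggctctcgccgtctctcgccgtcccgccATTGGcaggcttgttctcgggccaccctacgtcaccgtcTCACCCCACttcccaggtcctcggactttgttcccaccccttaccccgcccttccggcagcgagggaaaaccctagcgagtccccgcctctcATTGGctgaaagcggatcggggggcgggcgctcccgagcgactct
Nsdhl: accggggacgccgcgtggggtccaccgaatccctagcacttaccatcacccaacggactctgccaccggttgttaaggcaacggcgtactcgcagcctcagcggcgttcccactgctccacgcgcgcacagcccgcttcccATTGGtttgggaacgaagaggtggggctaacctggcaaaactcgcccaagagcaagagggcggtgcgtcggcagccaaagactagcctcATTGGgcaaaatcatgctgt
RefSeq promoters were matched for 8 of the 14 sterol genes. CCAAT was present in 8 of 8, beside the 37.5% given above, and in 6 of 9 fatty acid synthesis genes. TCACNCCAC was present in 1 of 8, the Hmgcs1 promoter shown, beside 1.22% of the 27025 genes. It was also present in 1 of the 9 fatty acid synthesis genes.

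Ribosomal protein genes were lower by a small and even amount at day 3. All 38 were lower in Ezh2-deficient, between -0.32 and -0.01 on the log2 scale with a median of -0.21, and 36 had counting intervals below 1. They summed to 31033 CPM in Ezh2-deficient and 35772 CPM in wildtype. At day 7 and day 14, 30 and 34 of the 38 were higher, with medians of 0.06 and 0.14. None passed the size rule on any day. Reads of these genes may be shared with processed pseudogenes. The 35 oxidative phosphorylation genes, by comparison, had a day 3 median of 0.04, with 13 counting intervals above 1 and 3 below.

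Genes that answer low oxygen and those of glycolysis were lower at day 3 and stayed lower. Of 32 expressed members, 30 were lower, 29 with counting intervals below 1, and Car12 and Ankrd37 passed the rule. The day 3 median log2 ratio was -0.38, beside -0.49 at day 7 and -0.36 at day 14, and the sum at day 3 was 9818 CPM in Ezh2-deficient and 12747 CPM in wildtype. The lactate exporter Slc16a3 had 87.4 CPM in Ezh2-deficient and 170.1 CPM in wildtype, and the mitophagy receptor Bnip3 had 262 CPM in Ezh2-deficient and 423 CPM in wildtype. The glycolytic enzyme Pgk1 had 1264 CPM in Ezh2-deficient and 1628 CPM in wildtype. Car12, a membrane carbonic anhydrase, had 17.6 CPM in Ezh2-deficient and 42.9 CPM in wildtype (2.44-fold lower, interval 2.22 to 2.68) and differed at day 3 alone, with 22.1 CPM in Ezh2-deficient and 27.4 CPM in wildtype at day 7 and 42.3 CPM in Ezh2-deficient and 43.6 CPM in wildtype at day 14. Ndufa4l2, a subunit-like protein of the respiratory chain that low oxygen induces and that was chosen after its values were seen, had 97.9 CPM in Ezh2-deficient and 205 CPM in wildtype.

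Other genes lower at day 3 differed in how long they stayed lower. Slc14a1, a urea transporter, had 1.02 CPM in Ezh2-deficient and 8.89 CPM in wildtype at day 3 (8.67-fold lower, interval 6.17 to 12.5), then 7.74 CPM in Ezh2-deficient and 11.4 CPM in wildtype at day 7, and 1.78 CPM in Ezh2-deficient and 2.69 CPM in wildtype at day 14. Its later log2 ratios of -0.56 and -0.58 lie just inside the 1.5-fold limit. Shc2, an adaptor of receptor tyrosine kinases, had 2.91 CPM in Ezh2-deficient and 8.59 CPM in wildtype at day 3 and 7.66 CPM in Ezh2-deficient and 7.28 CPM in wildtype at day 7. Bcl3, a cofactor of NF-kappaB, had 2.64 CPM in Ezh2-deficient and 7.53 CPM in wildtype at day 3 and 8.47 CPM in Ezh2-deficient and 6.57 CPM in wildtype at day 7. These 3 genes were apart at day 3 alone, and their Ezh2-deficient level was higher at day 7 than at day 3. Kbtbd5 (Klhl40, a muscle protein) had 0.135 CPM in Ezh2-deficient and 2.36 CPM in wildtype at day 3 (17.5-fold lower, interval 7.18 to 55.4) and under 0.2 CPM later. Chi3l1, a secreted protein of cartilage under inflammation, had 17.7 CPM in Ezh2-deficient and 48.4 CPM in wildtype at day 3, 31.2 CPM in Ezh2-deficient and 27.0 CPM in wildtype at day 7, and 5.14 CPM in Ezh2-deficient and 34.6 CPM in wildtype at day 14. Vit, a matrix protein of surface cartilage, had 24.5 CPM in Ezh2-deficient and 57.7 CPM in wildtype, and with Sfrp5 it made up the 2 of 15 superficial zone genes past the rule. Pla2g7, a phospholipase that breaks down platelet-activating factor, had 3.96 CPM in Ezh2-deficient and 10.2 CPM in wildtype at day 3 and was nearly even at day 14 (log2 ratios of -1.34, -0.76 and -0.06 on the 3 days). Tnfrsf9, a costimulatory receptor of the TNF receptor family, had 2.02 CPM in Ezh2-deficient and 5.05 CPM in wildtype at day 3, with log2 ratios of 0.05 and -0.70 later. Tmem132b, a membrane protein, had 5.93 CPM in Ezh2-deficient and 13.9 CPM in wildtype at day 3 and passed downward again at day 14. Nnt, the mitochondrial transhydrogenase, had 24.0 CPM in Ezh2-deficient and 57.5 CPM in wildtype, with log2 ratios of -1.26, -1.27 and -1.44 on the 3 days. The C57BL/6J strain is known to lack a working Nnt, and the labels give a mixed strain. Strain and knockout therefore cannot be told apart, for this gene or for the others compared here. The carboxypeptidase Cpm, the muscle Z-disc protein Mypn and the secreted protein Pamr1 also passed downward on every day. Trank1, Cryba2, Cmtm8, Pkhd1l1, Krt79, Zfp114, Kcnab3, Zfp493 and Zfp189 were apart at day 3 alone and low in both day 3 libraries, with Zfp189 the highest in Ezh2-deficient at 3.24 CPM.

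Large genes of day 3 alone outside the lists were spread over many functions. Peg10, an imprinted gene derived from a retrotransposon and chosen after its values were seen, had 894 CPM in Ezh2-deficient and 416 CPM in wildtype at day 3, 241 CPM in Ezh2-deficient and 223 CPM in wildtype at day 7, and 32.0 CPM in Ezh2-deficient and 36.4 CPM in wildtype at day 14. Mest, also imprinted, lay just under the threshold with 691 CPM in Ezh2-deficient and 349.8 CPM in wildtype, while the imprinted H19 and Igf2 had log2 ratios of 0.14 and -0.08. Spink5, a protease inhibitor, had 25.9 CPM in Ezh2-deficient and 7.16 CPM in wildtype at day 3 and 21.6 CPM in Ezh2-deficient and 17.1 CPM in wildtype at day 7. Pcdh17, an adhesion protein of the protocadherin family, had 12.1 CPM in Ezh2-deficient and 3.63 CPM in wildtype at day 3 and 2.88 CPM in Ezh2-deficient and 2.65 CPM in wildtype at day 7. Vgll3, a cofactor of TEAD transcription factors, had 9.01 CPM in Ezh2-deficient and 2.96 CPM in wildtype at day 3, and 48.0 CPM in Ezh2-deficient and 33.0 CPM in wildtype at day 7. Aldh1a1, which makes retinoic acid, had 8.01 CPM in Ezh2-deficient and 2.63 CPM in wildtype at day 3. Its relative Aldh1a7, with 18.9 CPM in Ezh2-deficient and 2.75 CPM in wildtype, still passed at day 7, and reads of such close relatives may be split between them. Prlr (the prolactin receptor), Prss12 (a protease of neurons), B3galt2 (a glycosyltransferase), Svop (a synaptic vesicle protein), Pcp4l1 and Lrrtm1 were the other named genes of day 3 alone, with ratios from 2.89 to 5.65. Of the large differences that lasted beyond day 3, the ephrin receptor Epha7 had 14.2 CPM in Ezh2-deficient and 3.08 CPM in wildtype, and Aoc3, an amine oxidase of fat and smooth muscle, was 4.12-fold higher and passed on all 3 days.

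Among markers of blood, vessel, nerve and skin cells, 1 gene passed the rule at day 3. The macrophage list summed to 203 CPM in Ezh2-deficient and 263 CPM in wildtype, with 18 of 24 members expressed, 13 of them lower and 0 past the rule. Of the 19 endothelial genes 5 were expressed, with Ramp2 past the rule upward, and the defining markers Pecam1 and Cdh5 had 0.755 and 0.162 CPM in Ezh2-deficient against 0.967 and 0.605 CPM in wildtype. No erythroid gene was expressed, 1 of 17 lymphoid genes was, and of the 8 neural, 4 keratinocyte, 8 tendon and 7 osteoclast genes expressed 0 passed the rule. The skeletal muscle factors Myod1 and Pax7 had 0.0809 and 0 CPM in Ezh2-deficient and 0.0605 and 0 CPM in wildtype. Whether the share of any cell type moved with the fat, muscle or bone genes was not tested. Interferon genes and genes of the unfolded protein and Atf4 responses, which stood apart later, were near even at day 3, with medians of 0.09 and 0.05 at day 3 and 0.82 and 0.37 over the same members at day 7. In all, 57 of 680 expressed members of the 35 lists passed the rule at day 3, 51 upward and 6 downward, beside the 1.78% and 0.503% of all expressed genes, and the lists were chosen with earlier results of these data known. By autosome, the share of expressed genes past the rule upward ran from 0.472% (chromosome 17) to 3.21% (chromosome 6). It was 2.90% on the X chromosome, beside the Xist and Y-linked values given above, whose part in it was not tested.

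**Figure D5:**
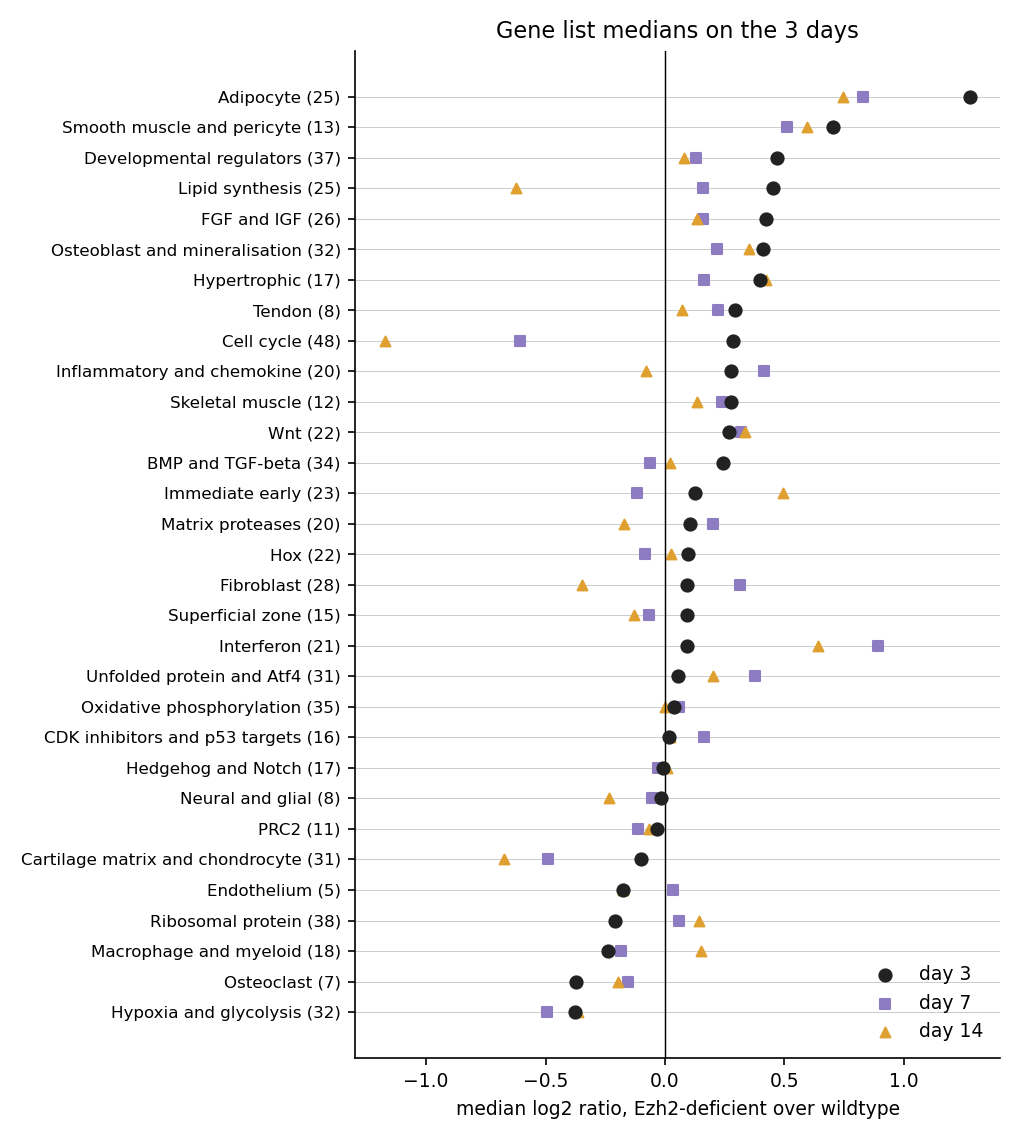
Median log2 ratio of Ezh2-deficient over wildtype (horizontal axis) for each gene list with 5 or more expressed members, ordered by the day 3 value, with days 3, 7 and 14 as circles, squares and triangles. Numbers in brackets are the members expressed at day 3, and later days use the members expressed on that day. At day 3 the adipocyte list lies highest at 1.28, most lists lie between 0 and 0.5, and the hypoxia list lies at -0.38.

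Whether the day 3 difference departs from that of the later days was tested with edgeR's quasi-likelihood F test, in which the day 7 and day 14 pairs share one genotype difference and so stand in for replicates, with 1 residual degree of freedom. Of 15323 genes tested, 1 was higher at day 3 (0.00653%) and 9 were lower at day 3 (0.0587%) relative to the later days, after Benjamini-Hochberg adjustment at 0.05. At an unadjusted p under 0.05 there were 926 and 573 genes. The gene higher at day 3 was Suv420h2, with a difference of 2.97 ± 0.22 (log2, SE) and an adjusted p of 0.0125 in edgeR. Over 6 alternatives its adjusted p ran from 2.50e-11 to 0.237. These include genotype by log2 day, which fits a trend over days in place of day 3 against later days. The 9 genes lower at day 3 had log2 ratios between -0.73 and 0.20 at day 3 and were higher in Ezh2-deficient later, with Tmem158 and the Atf4 targets Trib3 and Chac1 first. Accn1 had counts in too few libraries to enter the test. DESeq2 called 34 genes higher and 28 lower, among them Car3, Adipoq, Fabp4, Acta2, Lox, Smpd3, Peg10 and Cdk1, and limma-voom called 1 and 8.

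Few genes of day 3 alone passed this test. They were chosen on the same values for a large ratio at day 3 and small or reversed ones later. How many reach a given p therefore describes them and supports nothing. Of the 92 higher genes 91 were tested, 68 had an unadjusted p under 0.05, and 1 passed in edgeR, 7 in DESeq2 and 1 in limma-voom. Of the 25 lower genes 24 were tested, 15 had an unadjusted p under 0.05, and 0 passed in edgeR, 1 in DESeq2 (Slc14a1) and 0 in limma-voom. Adipoq had a difference of 2.33 ± 0.30 (adjusted p = 0.0906 by edgeR), Car3 3.57 ± 0.49 (adjusted p = 0.119) and Cdk1 1.33 ± 0.18 (adjusted p = 0.119), none of which passed. All 48 cell cycle genes had a positive difference, with a median of 1.27, and 0 passed in edgeR and 11 in DESeq2. Of the 48, 46 had an unadjusted p under 0.05, beside 926 of all 15323 genes tested in this direction. Their median log2 ratios were 0.29, -0.60 and -1.17 on the 3 days, so the difference reflects the later days as well as day 3. For the 14 sterol genes the difference was positive in all, with a median of 0.85, 10 at an unadjusted p under 0.05, 0 in edgeR and 1 in DESeq2 (Insig1). Ezh2 itself had a difference of -0.01 ± 0.19 (adjusted p = 0.995).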

How the data were processed

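RNA was measured by sequencing of total RNA in 6 libraries. The deposited table held read counts per gene, whole numbers that the authors had not normalized, and RPKM values, which the authors made per the file headers and which were not used here in any result. CASAVA 1.9, TopHat 12.0.6, HTSeq and the build mm10 are named, per the submitters' processing notes, without roles. No source used here gives the annotation or strandedness, and overlapping genes cannot be told apart. Coordinates are those of the deposited table, which has 23358 entries with 23315 symbols, some of them older names.

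Counts were halved to fragments because every count was even. Ratios used TMM factors over the 6 libraries (0.935 and 0.939 for Ezh2-deficient and wildtype at day 3) and a prior of 2 fragments. Intervals are exact 95% (Clopper-Pearson) intervals of the ratio given both counts. Reads had no molecular identifiers, so intervals and floors cover counting error only. Genes were filtered for the test with filterByExpr (minimum count 10) and fitted with edgeR 4.0.16 (R 4.3.3), with DESeq2 1.42.0 and limma 3.58.1 as alternatives, by scripts tested on simulated data. The 2 later pairs are different days, so p-values measure the spread between days as well as between libraries.

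The comparison, the 35 gene lists and the rules were chosen with earlier results of these data known, so lists are described by counts and medians. Genes were named by a rule: Ezh2, the 15 largest ratios in each direction at 5 CPM or more, the 15 largest of day 3 alone at 2 CPM or more, the 5 smallest p in each direction of the test, up to 8 list members past the size rule per list, and defining markers, leaving out uncharacterised symbols. Members named for a role although they did not pass the rule were chosen after their values were seen. Promoters are from RefSeq and overlaps from GENCODE, both on the same build.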

Additional observations from a re-analysis of the deposited data

Results flagged for a closer look

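Of the genes tested by edgeR's quasi-likelihood F test, 10 had a genotype difference at day 3 that departed from the one shared by days 7 and 14, with Benjamini-Hochberg adjusted p under 0.05. In 9 of them the departure was -6.89 to -1.61 on the log2 scale, because both libraries were near even, or wildtype was higher, at day 3, and Ezh2-deficient was higher on both later days. Tmem158, a membrane protein induced by Ras signalling, had 397 CPM in Ezh2-deficient and 659 CPM in wildtype at day 3, 614 CPM in Ezh2-deficient and 9.64 CPM in wildtype at day 7, and 546 CPM in Ezh2-deficient and 6.83 CPM in wildtype at day 14, a departure of -6.89 ± 0.23 (log2, SE, adjusted p = 0.000207). Its transcripts were thus present in both genotypes on the first day sampled.

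Trib3, a pseudokinase induced under amino acid stress, departed by -2.17 (adjusted p = 0.0125 by edgeR), with 311 CPM in Ezh2-deficient and 313 CPM in wildtype at day 3 and 82.3 CPM in Ezh2-deficient and 18.4 CPM in wildtype at day 7. Chac1, which breaks down glutathione, departed by -2.49 (edgeR adjusted p = 0.0125), with 103 CPM in Ezh2-deficient and 151 CPM in wildtype at day 3 and 45.8 CPM in Ezh2-deficient and 10.7 CPM in wildtype at day 7. The amino acid transporters Slc6a9 and Slc7a3 departed by -1.96 and -1.90 (edgeR adjusted p = 0.0125 and 0.0133), and the stress-induced Nupr1 by -1.82 (0.0208). Pck2, the mitochondrial carboxykinase, departed by -1.61 (0.0328). Avil, an actin-binding protein of sensory neurons, departed by -3.34 (edgeR adjusted p = 0.0125), with 243 CPM in Ezh2-deficient and 269 CPM in wildtype at day 3 and 31.5 CPM in Ezh2-deficient and 4.32 CPM in wildtype at day 7. Entpd3, an enzyme that breaks down extracellular nucleotides, departed by -1.99 (0.0239).

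Suv420h2 was the 1 gene with a positive departure, 2.97 ± 0.22 (edgeR adjusted p = 0.0125). Over the 6 alternatives the adjusted p of each of the 10 genes passed in at least 1 and missed in at least 1. The highest value was between 0.0759 (Avil) and 0.237 (Suv420h2). Each missed with genotype by log2 day, which fits a trend over days, a different question, and called 0 genes.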

How the results depend on the processing

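The counts of genes past the size rule followed the thresholds. In the order higher, lower, higher at day 3 alone and lower at day 3 alone, they were 458, 147, 185 and 71 with no CPM minimum, 85, 26, 30 and 6 at 5 CPM, 715, 340, 408 and 197 at 1.5-fold, and 63, 10, 18 and 4 at 3-fold. The share of higher genes was 67.8% at 1.5-fold and 86.3% at 3-fold. When later days had only to miss the size rule, 151 and 39 genes counted as day 3 alone. At 5 CPM 29 list members passed. In the test of day 3 against later days, DESeq2 called 62 genes, edgeR without a filter 285 (200 higher, 85 lower), and edgeR with genotype by log2 day 0, where 2095 had an unadjusted p under 0.05. The other 42 of 64 comparisons of a count with its alternative stayed within 1.5 times.

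Of the ratios of 97 named genes under 5 alternatives, 470 stayed on their side of the 2-fold threshold and 15 did not, 14 of them with a prior of 10 fragments, and 0 changed sign. List medians stayed within their spread, except for the lymphoid list, which has 1 expressed gene. The test takes each genotype difference within a day. The labels give no replicate numbers to use as a block, and with 1 library per genotype and day no replicate could be left out at day 3. Low levels limit most calls: 149 of 234 higher genes were under 5 CPM.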
